A study of Danio rerio with 55 samples.

Results

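In wild-type zebrafish embryos at 24 hours post-fertilization (hpf), 84 of 10650 H3K4me3 regions were at least 2 kb wide and had no Ezh2 or H3K27me3 peak within 1 kb. These 84 broad domains made up 0.789% of the regions (Wilson 95% interval 0.638 to 0.975%) and 2.73% of the bases they covered. They were selected on the wild-type peak lists alone: H3K4me3 peaks less than 1 kb apart were merged in each of 3 replicates, the 3 merged lists were intersected, and regions of at least 2000 bp were kept when no peak of the 2 Ezh2 and the 2 H3K27me3 lists lay within 1 kb. Wild-type width and the lack of Ezh2 and H3K27me3 peaks therefore chose the domains, and these values are a description. Rnf2 peaks and the lists of mutant embryos were not used to choose them. A Polycomb peak below means a peak of these wild-type Ezh2 and H3K27me3 lists, and Rnf2 peaks are not counted among them.

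H3K4me3, trimethylation of lysine 4 of histone H3, marks active and poised promoters, where MLL/SET1-type methyltransferases deposit it. At most promoters it forms a short peak around the transcription start site, whereas broad domains spread into the gene body and have been linked, mainly in mammals, to cell identity genes and to steady transcription. Polycomb group proteins act on developmental genes through Polycomb repressive complex 2, whose subunit Ezh2 methylates lysine 27 of the same histone (H3K27me3), and Polycomb repressive complex 1, whose subunit Rnf2 ubiquitylates histone H2A. Promoters that carry both H3K4me3 and H3K27me3 are called bivalent. The domains described here are broad regions outside the listed Ezh2 and H3K27me3 peaks.

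Chromatin came from pools of whole embryos at 24 hpf on a TU/TLF mixed background, so every value averages over all cell types of the embryo. MZezh2 mutants carried the nonsense allele hu5670 of ezh2 and lacked both the maternal and the zygotic gene product, since they were bred from parents with a transplanted mutant germline. Wild-type embryos came from fish with a wild-type germline, and neither genotype received a treatment. H3K4me3 was profiled in 3 replicates per genotype and Ezh2, H3K27me3 and Rnf2 in 2, and all peaks were called against 1 kind of input DNA, from wild-type embryos of strain AB. The deposited lists held no read counts, and library depth was not analysed here.

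The H3K4me3 lists differed in size within each genotype, with 11487 to 14667 peaks in wild-type and 10642 to 15968 in mutant replicates, and mutant replicate 3 had the fewest. The Rnf2 lists differed more, with 19509 peaks in wild-type replicate 1, 991 in wild-type replicate 2, and 656 and 348 in the mutants. Mutant Ezh2 lists held 21 and 699 peaks, against 3940 and 2137 in wild type, and mutant H3K27me3 lists held 287 and 756 peaks, against 6918 and 5283. The Ezh2 list of mutant replicate 1 reached down only to a -log10 q of 2.04, the other Ezh2 lists to 1.01 or 1.02. Its count is therefore not like for like with theirs.

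Broad H3K4me3 regions divided almost evenly by Polycomb peaks under the rule, and the split depended on which peaks were counted. Of 170 wild-type regions of at least 2 kb, 84 had no Polycomb peak within 1 kb and 86 had one, a share of 50.6% (Wilson 95% interval 43.1 to 58.0%). Of the 10480 narrower regions, 1526 had a Polycomb peak within 1 kb, or 14.6% (13.9 to 15.2%). A Polycomb peak near the region was thus listed more often for broad than for narrow regions. Both shares come from the lists that chose the domains and are a description. Wide regions also hold more bases on which a peak can lie, and the part of their length in the difference was not tested. Of the 86, 76 had an Ezh2 replicate 1 peak within 1 kb and 26 an Ezh2 replicate 2 peak. An H3K27me3 peak of replicates 1 and 2 was near 51 and 42. The wild-type Ezh2 lists reached down to a -log10 q of 1.01 and 1.02, the H3K27me3 lists to 2.02. With only Polycomb peaks found in both replicates, 127 of the 170 had none. With only those of -log10 q at least 2, 107 had none. Intervals for shares cover counting error only.

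The 84 domains ranged from 2011 to 4503 bp with a median of 2229 bp, and most lay close to the limit. The median over all H3K4me3 regions was 584 bp. Between them, 21 domains were under 2100 bp, 23 reached 2500 bp and 4 reached 3000 bp. The 86 broad regions with a Polycomb peak had a median of 2484 bp and a maximum of 4686 bp, and 14 of them reached 3000 bp. Very wide regions were therefore fewer among the domains without Polycomb peaks.

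The width limit did not fall in a gap between widths. Inside it, chr12:28840055-28842068 was 2014 bp wide, and chr25:6261856-6263866 and chr5:48342456-48344466 were both 2011 bp. Outside it, chr25:26458088-26460083 and chr9:22014312-22016307 were both 1996 bp and chr1:43471774-43473762 was 1989 bp. In wild-type replicate 1 the merged peaks of these 6 regions were 2498, 2197 and 2489 bp inside the limit and 2210, 2347 and 2190 bp outside it. In mutant replicate 3, the list with the fewest peaks, they were 1810, 2136 and 2568 bp inside and 1739, 669 and 1413 bp outside. The wild-type replicate 1 fold enrichment was 9.17, 7.87 and 5.75 inside and 6.16, 5.89 and 7.37 outside. The 2 sides overlapped in each wild-type list, in width of the merged peak and in fold enrichment, and not in width in mutant replicate 3.

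The widest domain lay at chr10:42155152-42159654 (GRCz10) and spanned 4503 bp. Its merged peak was 5031, 4742 and 5524 bp wide in the 3 wild-type replicates and 6143, 4415 and 3624 bp in the 3 mutant replicates, so the genotypes overlapped. It was a single uninterrupted peak in all 6 lists, and its fold enrichment over input was moderate at 5.55, 5.23 and 4.20 in wild type and 7.23, 5.58 and 3.61 in mutants. Its nearest Ezh2 or H3K27me3 peak was 69242 bp away.

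The domain ranked 2 by width, at chr7:33076942-33080769, was nearly the same width in every wild-type replicate. It measured 3895, 3886 and 3893 bp in wild type and 4178, 4013 and 3720 bp in mutants. The domain ranked 3, at chr19:7233608-7237175, measured 4270, 3654 and 3647 bp in wild type and 4418, 3535 and 3080 bp in mutants. Both were single peaks in all 6 lists.

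The domain ranked 4, at chr25:35817171-35820593, showed what merging can do. Its merged width was 5130, 4883 and 3426 bp in wild type, and 5087, 5005 and 1998 bp in mutants. In the wild-type lists, 2, 3 and 2 of the joined peaks overlapped the domain. A further joined peak of wild-type replicate 2 lay to its left. The merged peak of mutant replicate 3 lay mostly to the left of the domain. The domain's fold enrichment was low for the set, at 4.61, 4.33 and 3.85 in wild type. The neighbouring chromosome 25 domain at chr25:34636457-34639308, ranked 6, varied most among the 10 widest, with merged widths of 5491, 4232 and 6551 bp in wild type and 6937, 4402 and 1389 bp in mutants.

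**Figure D1:**
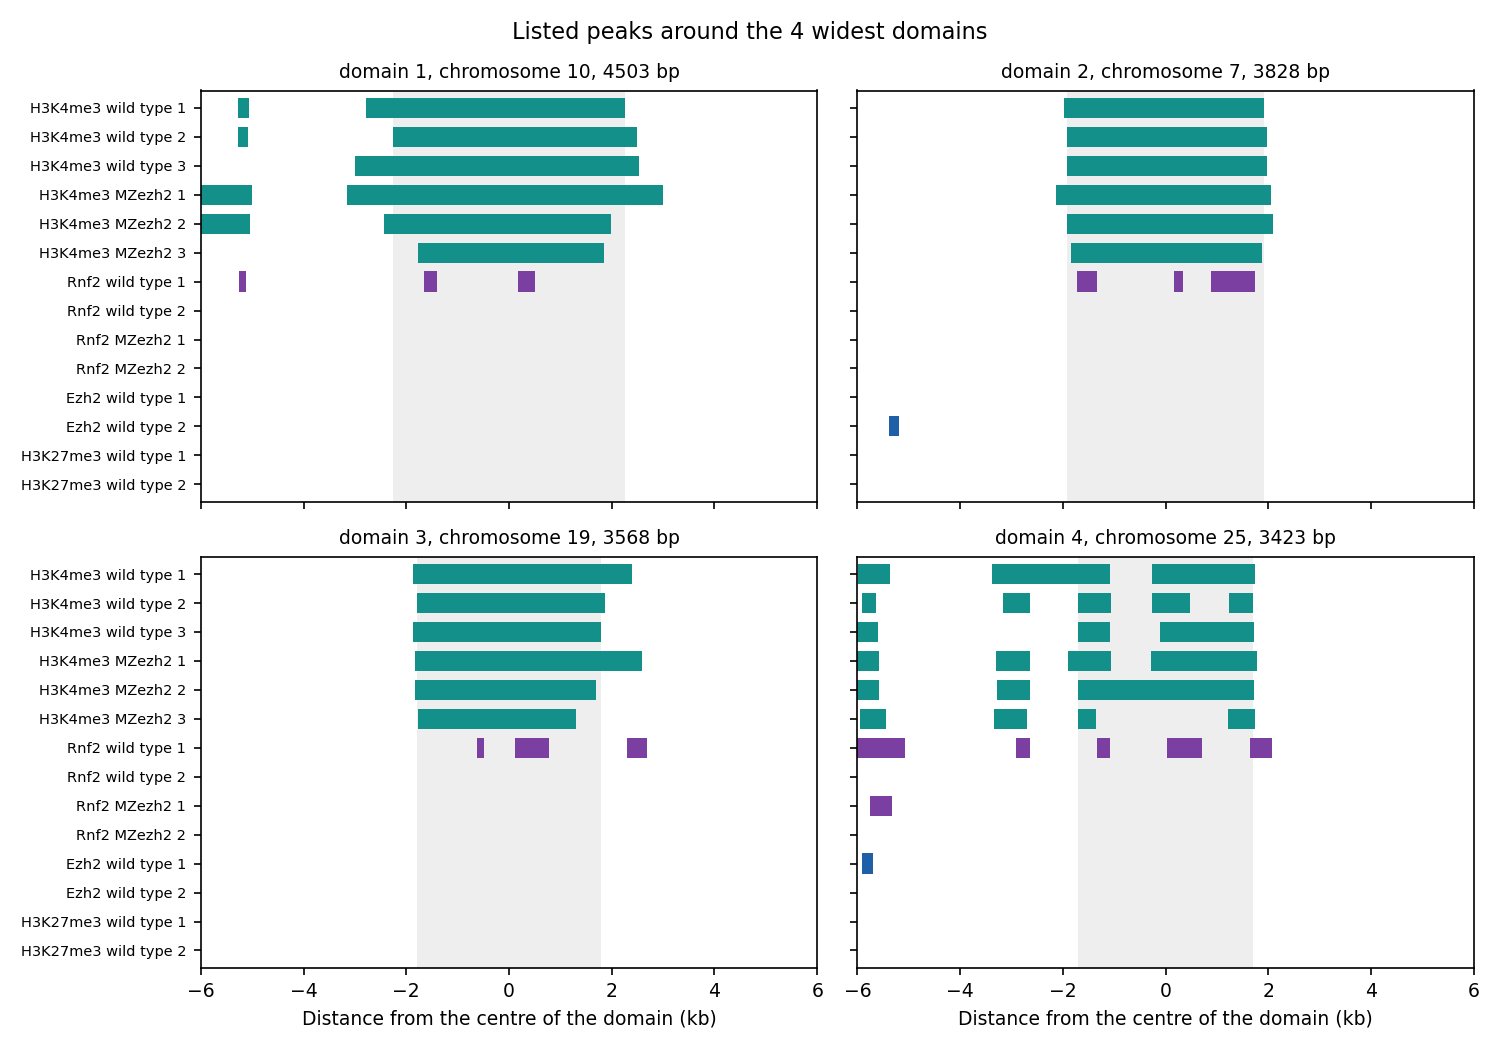
Listed peaks within 6 kb of the centre of the 4 widest domains, with distance from the centre in kb on the x axis and 1 row per peak list (teal H3K4me3, purple Rnf2, blue Ezh2, red H3K27me3; wild type and MZezh2, replicate number at the end), and the domain shaded grey. The domains of 4503, 3828 and 3568 bp each overlap 1 uninterrupted H3K4me3 peak in all 6 lists, and the domain of 3423 bp is pieced together from several. Inside the shaded domains Rnf2 peaks appear only in wild-type replicate 1.

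The other domains among the 10 widest lay at chr6:19793350-19796268, chr4:1833669-1836486, chr3:24922801-24925579, chr13:11303934-11306645 and chr24:23693465-23696158, and spanned 2694 to 2919 bp. At chr6:19793350-19796268 the fold enrichment was 10.6, 9.33 and 7.71 in wild type and 16.1, 10.6 and 6.91 in mutants, the highest wild-type mean among the 10 widest. At chr13:11303934-11306645 it was 5.03, 4.58 and 5.06 in wild type and 7.10, 5.68 and 4.05 in mutants. Wide domains therefore included strongly and weakly enriched ones.

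Most domains were continuous in wild type, where 52 of 84 had 1 peak in each of the 3 lists. Several peaks lay at 28.6, 29.8 and 9.52% of the domains in wild-type replicates 1, 2 and 3. The shares were lower at broad regions with a Polycomb peak, at 11.6, 18.6 and 3.49%. They were 0.838, 0.815 and 0.0670% at narrower regions without one. In 51 of 84 (60.7%) the region overlapped 1 peak in each of the 6 lists. In mutant lists that peak did not always span the domain. In 32 domains at least 1 wild-type list had several peaks that merging joined, across 59 gaps of 619 to 980 bp with a median of 813 bp. Without merging, or with merging only under 500 bp, 51 domains met the rule. Edges were less sharp than the domains themselves: over the 3 wild-type replicates the position of an edge spread by a median of 166 bp, and 50 of 168 edges stayed within 100 bp. The widest wild-type replicate of a domain was a median of 1.13 times as wide as the narrowest.

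Broad domains were somewhat more strongly enriched than narrower regions without a Polycomb peak in each wild-type list. Their median fold enrichment over input was 7.89, 7.38 and 5.97 in the wild-type replicates, against 6.84, 6.87 and 5.45 over the 8954 narrower regions. For each region this was the MACS2 signal averaged over the peaks that overlapped it, weighted by length. The 86 broad regions with a Polycomb peak were lower, at 6.36, 6.0 and 4.99. These are wild-type values of the peaks that chose the domains and are given without a test.

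Enrichment did not climb steadily with width. In wild-type replicate 1 the median was 5.94 for regions under 500 bp, 7.37 from 500 to 1000 bp, 7.55 from 1000 to 1500 bp, 7.33 from 1500 to 2000 bp and 7.89 for the 84 domains. Among the domains, width and mean wild-type fold enrichment had a Spearman correlation of -0.02 (n = 84 domains, all from the same 3 libraries). The mean wild-type fold enrichment of a domain ranged from 4.23 to 10.8 with a median of 6.97.

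The 5 domains with the highest mean wild-type fold enrichment were narrower than the widest ones, at 2103 to 2661 bp. The domain at chr8:7546398-7549058 came first, with 13.0, 10.3 and 9.05 in wild type and 15.8, 11.3 and 7.67 in mutants. It was followed by chr6:53331624-53333827 with 11.8, 10.6 and 8.95 in wild type and 16.4, 10.9 and 6.30 in mutants. In both, the range of the mutant values enclosed that of the wild-type values.

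The domain at chr4:22749588-22751769 had wild-type fold enrichments of 11.8, 10.2 and 8.33 and mutant values of 17.7, 12 and 6.18. For chr14:23979385-23981707 they were 10.9, 9.99 and 7.75 in wild type and 15.6, 10.9 and 6.36 in mutants. For chr14:38441322-38443424 they were 10.8, 9.01 and 8.72 in wild type and 15.9, 11.7 and 6.61 in mutants. All 5 were highest in mutant replicate 1 and lowest in mutant replicate 3.

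Domains lay on all 25 chromosomes and none on an unplaced scaffold. Chromosomes 3 and 17 held 7 each, and chromosomes 1, 16 and 23 held 1 each. Per 1000 H3K4me3 regions of the chromosome, the number was 7.89 over all regions (Wilson 95% interval 6.38 to 9.75), from 2.19 on chromosome 16 (0.386 to 12.3) to 18.4 on chromosome 17 (8.95 to 37.5). Chromosome 17 was the only one of 25 whose interval lay wholly above the value for all regions, no adjustment for the number of chromosomes was made, and no interval lay wholly below it.

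**Figure D2:**
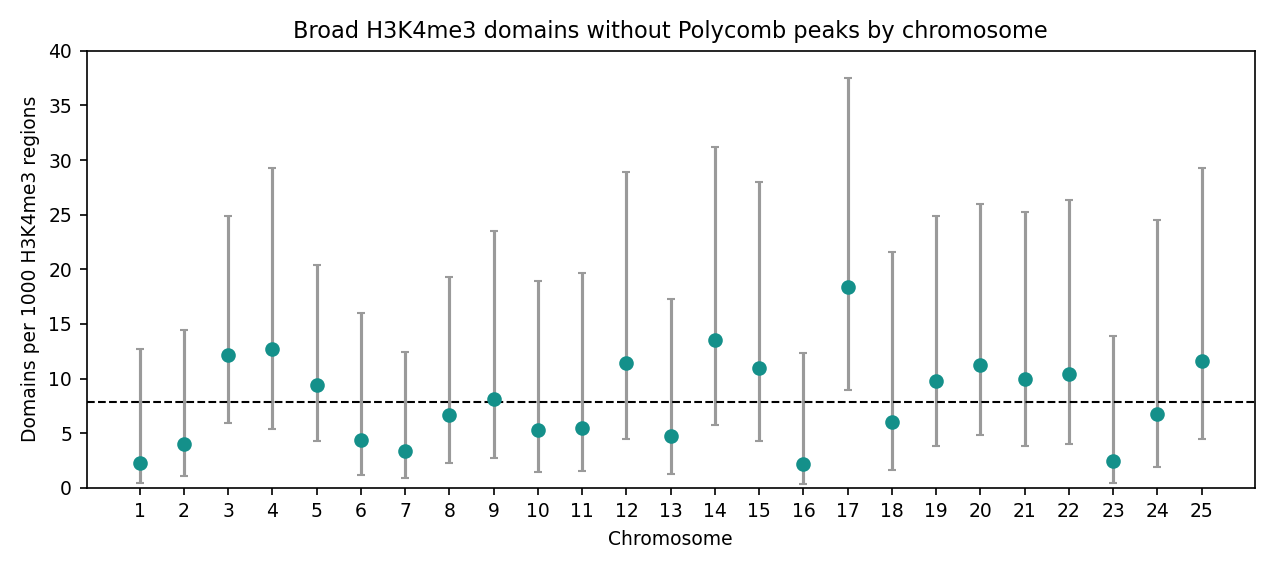
Broad H3K4me3 domains without Ezh2 or H3K27me3 peaks per 1000 wild-type H3K4me3 regions (y axis) on each of 25 chromosomes (x axis). Points carry Wilson 95% intervals, and the dashed line is the value over all regions, 7.89. Chromosome 17, with 7 domains and 18.4 per 1000 regions, is the only one whose interval stays above the line.

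Neighbouring domains mostly lay far apart, and no expected spacing was worked out. Neighbouring domains on a chromosome lay a median of 7750981 bp apart, and 3 pairs were less than 200 kb apart. The closest pair, chr22:22233400-22235917 and chr22:22275797-22277844, was separated by 39879 bp. The distance to the next H3K4me3 region had a median of 26642 bp, close to the 24221 bp of narrower regions without a Polycomb peak.

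Few domains lay just beyond the 1 kb limit from a Polycomb peak, and the distances of other regions were not worked out. The nearest wild-type Ezh2 or H3K27me3 peak was 1204 to 475859 bp away, with a median of 68140 bp. It was within 5 kb for 10 domains and over 100 kb away for 28. Among the widest, chr6:19793350-19796268 was near the limit, at 1467 bp, and chr7:33076942-33080769 was 3268 bp from a peak.

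Rnf2 peaks, which the rule had not used, were listed at most domains in 1 wild-type replicate and at none in the other. In wild-type replicate 1, 67 of 84 domains overlapped an Rnf2 peak, or 79.8% (Wilson 95% interval 70.0 to 87%). In wild-type replicate 2 the number was 0 of 84, which allows a share of up to 3.57% by a floor of 3 counts (Wilson 95% upper limit 4.37%), and no Rnf2 peak of that list lay within 1 kb. That list overlapped 3 of 8954 narrower regions without a Polycomb peak (0.0335%), so the lack of its peaks was not particular to the domains. Both mutant Rnf2 lists also had 0 of 84. The Rnf2 result therefore rests on a single list, the one with 19509 peaks against 348 to 991 in the others, and the part of that difference in the result was not tested. Peak names in the Rnf2 lists of replicate 1 of both genotypes carry a label for a merged alignment, so these lists may stem from pooled runs, and what was merged is not given in the sources used here.

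The share of regions with an Rnf2 peak in wild-type replicate 1 was lowest for the narrowest regions and highest for the domains. Without a Polycomb peak within 1 kb, it was 24.1% under 500 bp, 42.0% from 500 to 1000 bp, 66.1% from 1000 to 1500 bp and 63.2% (57.1 to 68.9%) from 1500 to 2000 bp. The domains, at 79.8%, were above the class just narrower in this 1 list, whose regions are not replicates. The number of Rnf2 peaks per kb was 0.678 under 500 bp, 0.612 from 500 to 1000 bp, 0.583 from 1000 to 1500 bp, 0.448 from 1500 to 2000 bp and 0.484 at the domains. The part of region length in the shares was not tested.

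Rnf2 peaks of wild-type replicate 1 covered a smaller share of the domains than of broad Polycomb regions. The study reported its wild-type Rnf2 peaks in regions positive for Ezh2 and H3K27me3, whose peaks the domains lack by selection. Rnf2 peaks of wild-type replicate 1 covered 27% of the bases of the domains, against 22.0% from 1500 to 2000 bp and 12% under 500 bp. They covered 64.1% of the bases of the 86 broad regions with a Polycomb peak, of which 97.7% overlapped one (91.9 to 99.4%). In wild-type replicate 2, 24.4% of those Polycomb regions (16.6 to 34.5%) had an Rnf2 peak. None of the domains and 0.0335% of narrower regions without a Polycomb peak had one.

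**Figure D3:**
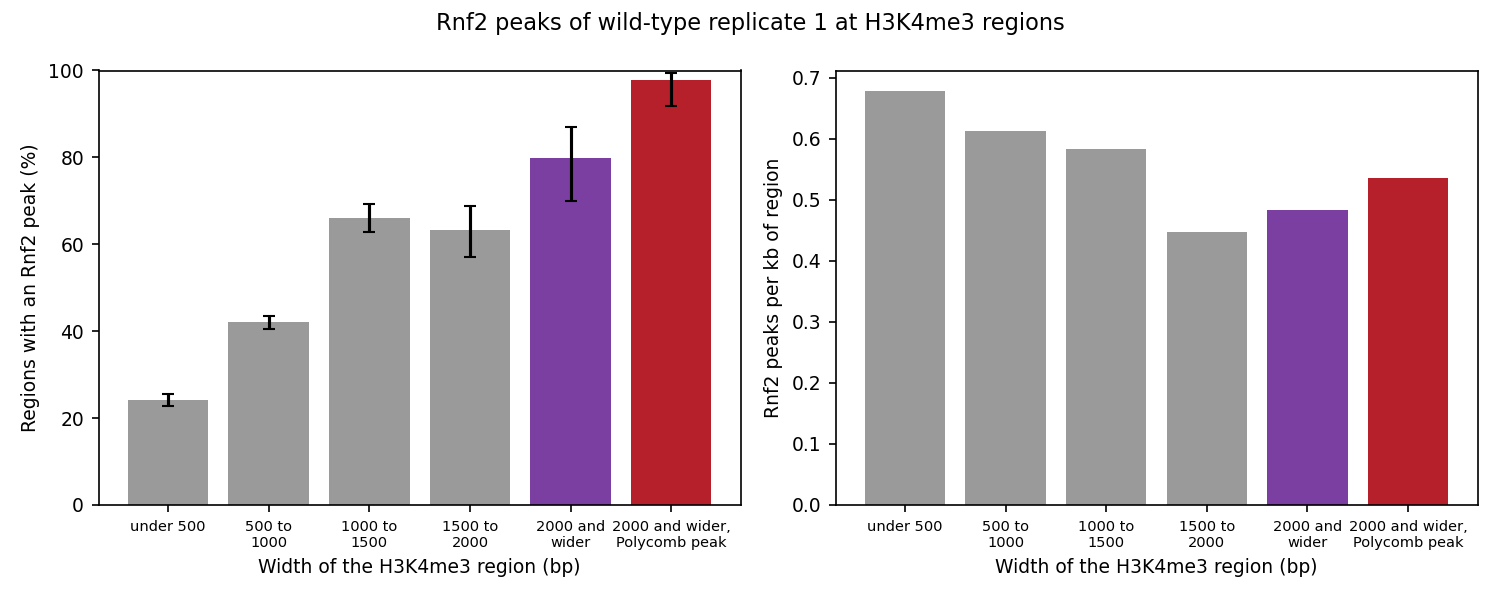
Left, share of wild-type H3K4me3 regions with an Rnf2 peak of wild-type replicate 1 (y axis, percent, with Wilson 95% intervals) by region width in bp (x axis); right, Rnf2 peaks per kb of region. Grey bars are narrower regions without a Polycomb (Ezh2 or H3K27me3) peak, purple the 84 domains and red the 86 broad regions with one. The share is 79.8% at the domains, whereas their 0.484 peaks per kb lie below the 0.678 of regions under 500 bp.

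The Rnf2 peaks at the domains had a larger median width than the whole list and no higher median enrichment. There were 96, with a median width of 469.5 bp, a median fold enrichment of 3.68 and a median -log10 q of 3.57, where the whole list had medians of 294 bp, 3.74 and 3.75. At broad Polycomb regions the Rnf2 peaks had medians of 1062 bp, 3.99 and 5.08 for the same measures. Of the 84 domains, 43 had 1 Rnf2 peak, 19 had 2 and 5 had 3, and 17 had none.

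Rnf2 peaks showed no preferred place in a domain. The midpoint of 47 fell in the central 50% of the domain, of 44 in its outer parts and of 5 outside it. In 14 domains Rnf2 peaks covered more than 50% of the bases, with a maximum of 90.7%. That maximum was at chr6:19793350-19796268, where 1 Rnf2 peak with a fold enrichment of 4.07 and a -log10 q of 4.53 spanned 2647 bp.

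Of the 10 widest domains, 9 had an Rnf2 peak in wild-type replicate 1, the exception being chr25:34636457-34639308, and all 5 with the highest H3K4me3 enrichment had one. Domains with and without an Rnf2 peak had similar median widths, 2234 and 2169 bp, and similar median wild-type fold enrichments, 7.02 and 6.78. With only the Rnf2 peaks whose score was above the list's median, 35 domains (41.7%) had one.

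Mutant lists of Ezh2, H3K27me3 and Rnf2 placed no peak on any domain or within 1 kb of one, in either replicate. For the 86 broad regions with a Polycomb peak, the same mutant lists overlapped 0 and 12.8% for Ezh2, 6.98 and 12.8% for H3K27me3, and 20.9 and 12.8% for Rnf2. The Ezh2 value of 0 is from the list that stopped at a -log10 q of 2.04. For the 8954 narrower regions without a Polycomb peak the mutant lists overlapped 0 to 0.313%, so the absence of mutant peaks was not particular to the domains.

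H3K4me3 persisted at every domain in the MZezh2 mutants. All 84 domains overlapped a peak in each of the 3 mutant lists and a region found in all 3. Of the 8954 narrower regions without a Polycomb peak, 8951, 8921 and 8127 had a peak in mutant replicates 1, 2 and 3. At 2 kb or more, the merged mutant peak kept its width at 84 domains in replicate 1, at 84 in replicate 2 and at 63 (75%) in replicate 3.

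The region common to the 3 merged mutant lists reached 2 kb at 58 of 84 domains, or 69.0% (Wilson 95% interval 58.5 to 77.9%). Mutant replicate 3 decided this count: without it 84 of 84 were broad in the mutants, and without replicate 1 or 2 it was 58 or 61. In the 26 other domains the mutant region was 514 to 1983 bp wide, and 10 of these were at least 1900 bp. Such a region can fall under 2 kb where each replicate's own merged peak reaches it. Over all 84 domains the mutant region had a median width of 2128 bp.

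The reverse comparison gave much the same share. Defined in the same way on the mutant H3K4me3 lists, with the wild-type Polycomb lists, there were 81 broad regions, of which 58 (71.6%, 61.0 to 80.3%) were broad in wild type as well. The other 23 lay in wild-type regions of 633 to 1987 bp, and none lacked a wild-type H3K4me3 region. Selection on width in either genotype thus left a similar share under the limit in the other.

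Of the 10 widest domains, 7 had a region of at least 2 kb common to the 3 mutant lists. The exceptions were chr25:35817171-35820593 with a mutant region of 1926 bp, chr25:34636457-34639308 with 514 bp and chr24:23693465-23696158 with 1290 bp. Each of these was pieced together from several peaks in at least 2 wild-type lists. The mutant region of 1926 bp lay mostly to the left of its domain. Of the 26 domains that did not stay broad, 12 had joined peaks in a wild-type list, and of the 58 that did, 20. All 5 domains with the highest enrichment stayed broad.

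Widths did not separate the genotypes. The median merged width at the domains was 2546, 2400 and 2341 bp in wild-type replicates and 2704, 2502 and 2142 bp in mutant replicates. Against the wild-type list of the same number, the mutant peak was wider at 61, 56 and 17 domains (72.6, 66.7 and 20.2%), and over 8126 narrower regions without a Polycomb peak at 75.8, 71.2 and 34.8%. Domains and narrower regions therefore leaned the same way in each list, towards wider peaks in mutant replicates 1 and 2 and narrower peaks in replicate 3.

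In 2 domains every mutant width exceeded every wild-type width, and in 0 every mutant width was smaller. Over all 9609 regions with a peak in the 6 lists, mutants were wider without overlap in 2.78% and narrower in 0.416%. The 2 domains were named after their values were seen. At chr18:21961302-21963471 the widths were 2297, 2239 and 2201 bp in wild type and 2591, 2346 and 2335 bp in mutants, and at chr1:32824397-32826496 they were 2310, 2341 and 2199 bp and 2467, 2446 and 2462 bp.

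**Figure D4:**
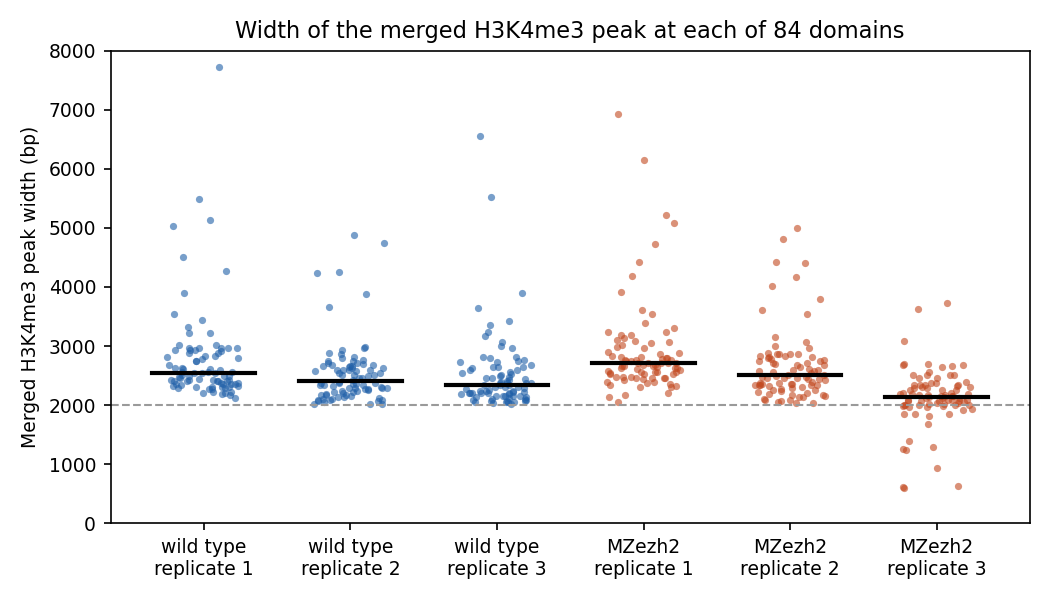
Width in bp (y axis) of the merged H3K4me3 peak at each of the 84 domains (points) in the 3 wild-type (blue) and 3 MZezh2 (orange) replicates, with the median as a black bar and the 2000 bp limit as a dashed line. All 84 points are above the line in 5 lists, by selection in wild type, whereas 63 are above it in MZezh2 replicate 3.

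H3K4me3 enrichment of the listed peaks at the domains did not differ detectably between MZezh2 mutants and wild type. Across all 9609 regions with a peak in every list, limma called 0 at an adjusted p below 0.05 (0% of those tested), and 359 had an unadjusted p below that value. Among the 84 domains 0 were called and 0 had such an unadjusted p, the smallest being 0.157 (adjusted p = 0.999). Values were log2 fold enrichments centred on the median of each list. Bases of a domain without a listed peak did not enter them, so the test could not see a loss of width. The study compared H3K4me3 peaks on read counts and reported some with more and some with less signal in mutants. Most of those with more signal were targets of Ezh2 or H3K27me3, whose peaks the domains lack by selection. The lists hold no counts, so a call of 0 here does not mean that no region differed.

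The differences at the domains were small in both directions. MZezh2 minus wild type ran from -0.20 to 0.17 with a median of 0.02 on the centred log2 scale, 50 domains being above zero and 34 below. The standard errors were 0.11 to 0.14 and the 95% intervals of single domains reached from -0.49 to 0.44, extending 0.23 to 0.31 to each side of the estimate. Over all regions the median was 0.00, with a range of -1.07 to 0.57. Fold enrichment measures signal relative to input, and centring removes any change common to all regions.

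The lowest difference was at chr25:34636457-34639308, with centred log2 values of -0.62, -0.61 and -0.57 in wild type and -1.04, -0.80 and -0.55 in mutants, a difference of -0.20 (SE 0.13, limma adjusted p = 0.999). The groups overlapped through mutant replicate 3. The domain at chr7:6292921-6295259 followed with -0.53, -0.56 and -0.54 against -0.97, -0.75 and -0.48, and chr9:46613183-46615357 with -0.18, 0.13 and 0.28 against -0.19, -0.25 and 0.11, both -0.19. Each of the 3 overlapped between genotypes.

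The highest differences were at chr19:7233608-7237175, with 0.28, -0.11 and 0.15 in wild type and 0.34, 0.25 and 0.26 in mutants, and at chr3:31792181-31794216, with 0.45, 0.24 and 0.54 against 0.63, 0.59 and 0.51, both 0.17 (SE 0.12, limma adjusted p = 0.999). The domain at chr4:5822312-5824337 had 0.09, -0.41 and -0.12 against -0.02, 0.03 and 0.03, a difference of 0.16. Wild-type replicate 2 was the lowest value in all 3.

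The genotypes did not overlap at 6 of 84 domains (7.14%), 4 higher and 2 lower in mutants, and at 9.03% of all 9609 regions. Replicates were closer to each other at the domains than at the other classes compared. The median standard deviation of the centred log2 values was 0.0915 in wild type and 0.0891 in mutants (n = 3 replicates each). It was 0.134 and 0.129 at narrower regions without a Polycomb peak and 0.122 and 0.146 at broad regions with one. Domains had to be wide in all 3 wild-type lists and hold more bases than narrower regions. The part of these in the difference was not tested. The ranking of domains was also kept, with a Spearman correlation of 0.95 between mean fold enrichment in wild type and mutants over the 84 domains, which share the input and the peak regions.

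**Figure D5:**
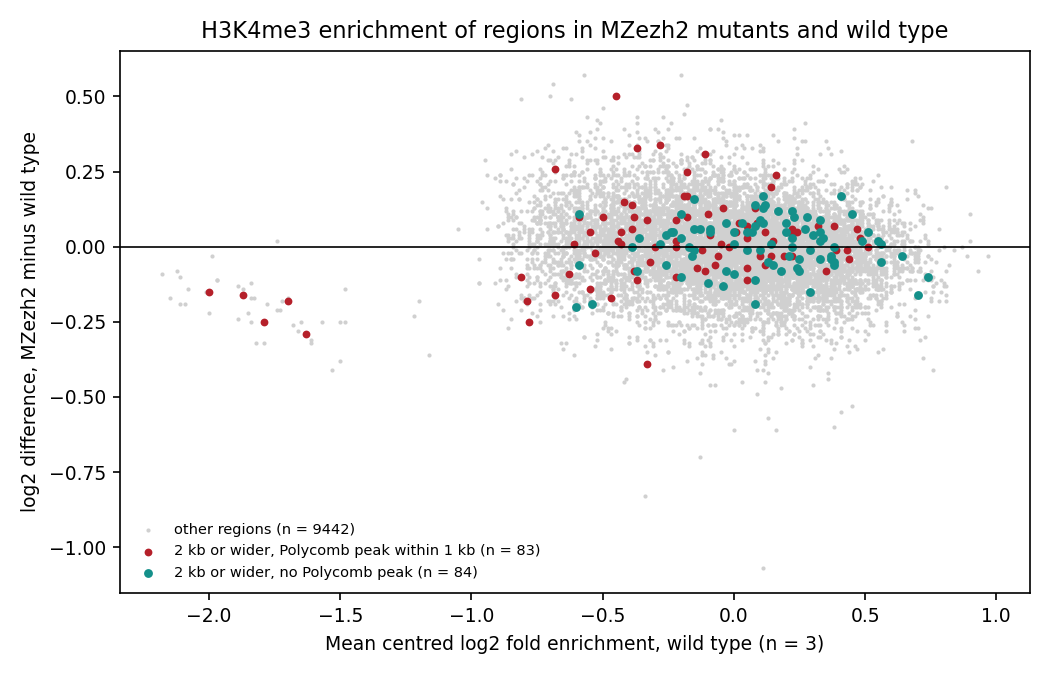
Difference in centred log2 H3K4me3 fold enrichment, MZezh2 minus wild type (y axis), against the wild-type mean of 3 replicates (x axis) for 9609 regions. The 84 domains (teal) stay between -0.20 and 0.17, the 83 broad regions with a Polycomb peak that had a peak in every list (red) run from -0.39 to 0.50, all other regions are grey, and none passed the test.

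The order of the lists was stronger than any difference between genotypes. Before centring, mutant replicate 1 had the highest fold enrichment of the 6 lists at 84 of 84 domains and mutant replicate 3 the lowest at 81. This was not particular to the domains. Over all 9609 regions the median log2 fold enrichment was 3.38 in mutant replicate 1, 2.21 in mutant replicate 3 and 2.46 to 2.79 in wild type. The domains' medians were 11.5, 8.28 and 5.25 in the mutant replicates, a spread within 1 genotype that was wider than that of the 3 wild-type medians.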

How the data were processed

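The sources of the values were ChIP-seq peak lists of wild-type and MZezh2 mutant embryos. According to the methods of the study, the authors aligned the reads with BWA-MEM to assembly GRCz10, discarded duplicates and reads that mapped to several places, and called peaks per replicate with MACS2, with wild-type input as control. The column layout of the files, and a label in most peak names, is that of broad peaks. The submitters' processing notes name BWA 0.7.15 and MACS2 2.1.1. For each peak the authors deposited a score, a fold enrichment over input (a ratio), a -log10 p-value and a -log10 q-value, all computed by MACS2. The lists hold neither read counts nor depth, and peaks called on input alone were not removed here.

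Peaks were merged, intersected and overlapped (at least 1 bp) in Python 3.11.15 and checked against bedtools 2.31.1 on simulated intervals. Fold enrichment per region was the mean over its peaks, weighted by length, and bases without a peak were left out. Log2 values, centred on each list's median over the regions tested, were compared with limma 3.58.1 in R 4.3.3 (3 against 3 replicates, two-sided, Benjamini-Hochberg adjustment over 9609 regions with a peak in all 6 lists), after a test on simulated data. The p-values set the difference between genotypes against the spread between replicates.

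The domains and the list of comparisons were chosen with earlier results of these data known. Regions named are the 10 widest, the 5 with the highest mean wild-type enrichment, 3 on each side of the width limit and the 3 with the largest difference in each direction. The closest pair and the 2 domains whose widths did not overlap were named after their values were seen. RNA-seq count files were not used, because gene coordinates and sequence of GRCz10 were not used here and domains were not joined to genes. Alternatives covered merging, width, Polycomb distance, score, overlap, centring, missing peaks, the replicate block and each replicate left out.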

Additional observations from a re-analysis of the deposited data

How the results depend on the processing

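Of 60 alternatives, 50 stayed within the spread set for each result. Many of the 50 were counts of 0 that stayed 0, and 0 regions called already fixes 0 domains called. The number of domains moved in most of its own alternatives. The 84 domains became 51 without merging and 51 with merging under 500 bp, 337 at a width of at least 1500 bp and 4 at 3000 bp, 127 when a Polycomb peak had to be in both replicates, and 46 with H3K4me3 peaks scoring above the median. Leaving out a wild-type replicate gave 92 to 130 domains, the highest without replicate 3. With Polycomb peaks of -log10 q at least 2, an alternative chosen after seeing the data, there were 107. The share of domains broad in the mutants was 69.0 to 100% on leaving out a mutant replicate, 100% without replicate 3. The share with an Rnf2 peak in wild-type replicate 1 was 41.7% for peaks scoring above the median. Without centring, the median difference in enrichment was 0.18 at the domains, 81 of 84 being higher in mutants, and 0.17 over all regions. All 12 other fits called 0 regions, with 3 to 798 at an unadjusted p below 0.05, and 0 to 2 of the domains, 2 being without mutant replicate 3. A replicate block called 0 regions, with 524 unadjusted and a smallest limma adjusted p of 0.195, against 0.999 without the block. The domains' median difference stayed at 0.02. Same-numbered replicates deviated together with r of 0.19, 0.00 and 0.25 over regions. Replicates 1 and 3 of opposite genotypes had r of -0.25 and -0.21. Mutant replicate 2 did not correlate best with its own number, so the numbers were not taken as pairs. The lists give no depth, which leaves the precision of a single peak unknown.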
